A study of Mus musculus with 12 samples.

Results

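The genes described here encode proteins of the spliceosome and splicing factors. They were chosen by symbol, as every gene with its own probeset on the array whose symbol begins with Snrp, or with Srsf, Sfrs, Sf3a, Sf3b, Prpf or Lsm and a number. This gave 52 genes with 136 probesets, of 18194 genes and 45037 probesets in the series. Expression had been measured on Affymetrix whole-genome mouse arrays in sorted testicular cells. The 12 arrays fell into 6 groups by strain and population, 2 in each. PWD/Ph (PWD), an inbred strain derived from wild *Mus musculus musculus*, was compared with C57BL/6J (B6), a laboratory strain mostly of *M. m. domesticus* origin. All mice were males of 8 to 10 weeks of age that had received no agent and carried no engineered allele by the labels. From the testes of each strain, flow sorting had given prepachytene spermatocytes (leptotene, zygotene and early pachytene cells, sorted together), pachytene spermatocytes (mid-late pachytene and diplotene cells) and spermatids (haploid cells after meiosis). The duplicates came from 2 animals, and the sources used here do not tie a replicate number to 1 animal over the 3 populations. By the study's methods, each sorted fraction also held a minority of other cells. The p-values below measure only the spread between such duplicates.

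Introns are removed from pre-mRNA by the spliceosome, which assembles anew on each intron from small nuclear ribonucleoproteins (snRNPs). The U1 snRNP recognises the start of the intron and the U2 snRNP the branch point near its end, after which the tri-snRNP of U4, U6 and U5 joins and the complex is rearranged for catalysis. Sm or LSm proteins form a ring around each snRNA, and SR proteins bind exons and help to choose the splice sites. In the testis, many transcripts are spliced in their own way, and transcription stops in elongating spermatids while stored mRNA is still used.

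Values are log2 expression of a probeset, and each gene is given by its brightest probeset, the one with the highest mean over the 12 arrays. A level of 6.05, the 95th percentile of 53 probesets of genes of other organs, served as the background level, and 48 of the 52 genes and 97 of the 136 probesets had means above it. The 4 genes below it were *Lsm11*, *Srsf12*, *Snrpn* and *Prpf39*, for which no probeset passed it. The list behind this level holds *Pomc* and *Krt10*, which were bright in these cells. Without that pair, a choice made after seeing the data, it was 5.05, and 50 genes and 107 probesets lay above it, *Lsm11* and *Prpf39* included. Statements below about the background level refer to 6.05. A log fold-change is a difference of mean log2 values, given with its standard error from limma, and p-values were adjusted over all 45037 probesets (threshold 0.05). Levels of different genes are not compared, since the probes of each probeset differ.

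Duplicate arrays correlated over all probesets at r = 0.987 to 0.996. The 12 markers of prepachytene cells were all lower, and the 12 markers of pachytene cells all higher, in pachytene than in prepachytene spermatocytes, and the 12 spermatid markers were all higher in spermatids than in pachytene spermatocytes. The spermatid markers were, however, also bright in the prepachytene fraction, with array medians of 11.44 and 11.73 in PWD and 10.63 to 10.77 in B6 prepachytene spermatocytes, against 8.96 to 9.64 in PWD and 9.02 to 9.12 in B6 pachytene spermatocytes, and 12 (PWD) and 11 (B6) of the 12 lay above the background level in prepachytene cells. Of 10 Sertoli cell markers, 5 lay above the background level in PWD and 4 in B6 prepachytene spermatocytes, against 2 in pachytene spermatocytes of either strain. Of 9 spermatogonia markers, 4 lay above it in prepachytene spermatocytes of each strain (array medians 5.82 and 7.26 in PWD, 4.87 and 5.13 in B6) and 0 in pachytene spermatocytes and spermatids. The part of these cells in the differences below was not tested. In PWD pachytene spermatocytes, the splicing genes were lower on replicate 1 than on replicate 2 in 43 of 52 cases (median difference -0.32, against -0.14 over 8046 genes above the background level), and 8 of the 12 spermatid markers were higher on replicate 1 (median difference 1.10). Counts of genes changed between populations, and between strains in pachytene spermatocytes, are given with and without this array. Single calls are mostly given with it only. Among those lost without it were *Srsf9* into pachytene, *Snrpf* and *Lsm10* into spermatids and *Lsm2* between strains in prepachytene spermatocytes. Between strains in pachytene spermatocytes, *Prpf38a*, *Srsf10*, *Snrpb2* and *Snrpg* were lost. In such bulk samples, fewer cells of a type and less RNA per cell cannot be told apart.

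The splicing genes were brightest in prepachytene spermatocytes and dimmest in spermatids. The median over the 52 genes was 12.19 and 12.34 in PWD and 12.09 and 12.12 in B6 prepachytene spermatocytes, 11.15 and 11.37 in PWD and 10.69 and 10.60 in B6 pachytene spermatocytes, and 9.21 and 9.37 in PWD and 9.13 and 9.15 in B6 spermatids. The arrays of the 3 populations did not overlap in this median, and in each population both PWD arrays stood above both B6 arrays. Over all genes above the background level, the median was also higher on both PWD arrays in prepachytene and pachytene spermatocytes. In pachytene spermatocytes it was 9.69 and 9.74 in PWD and 9.41 and 9.28 in B6. Among the 48 genes above the background level, the highest group mean fell in prepachytene spermatocytes for 33 genes in PWD and 34 in B6, in pachytene spermatocytes for 13 and 9, and in spermatids for 2 and 5, and 35 genes had the same highest population in both strains. Spermatids held the lowest mean of 40 genes in PWD and 38 in B6. The highest and lowest populations were not counted over all genes, so how far these counts are particular to the splicing genes is not known.

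**Figure D1:**
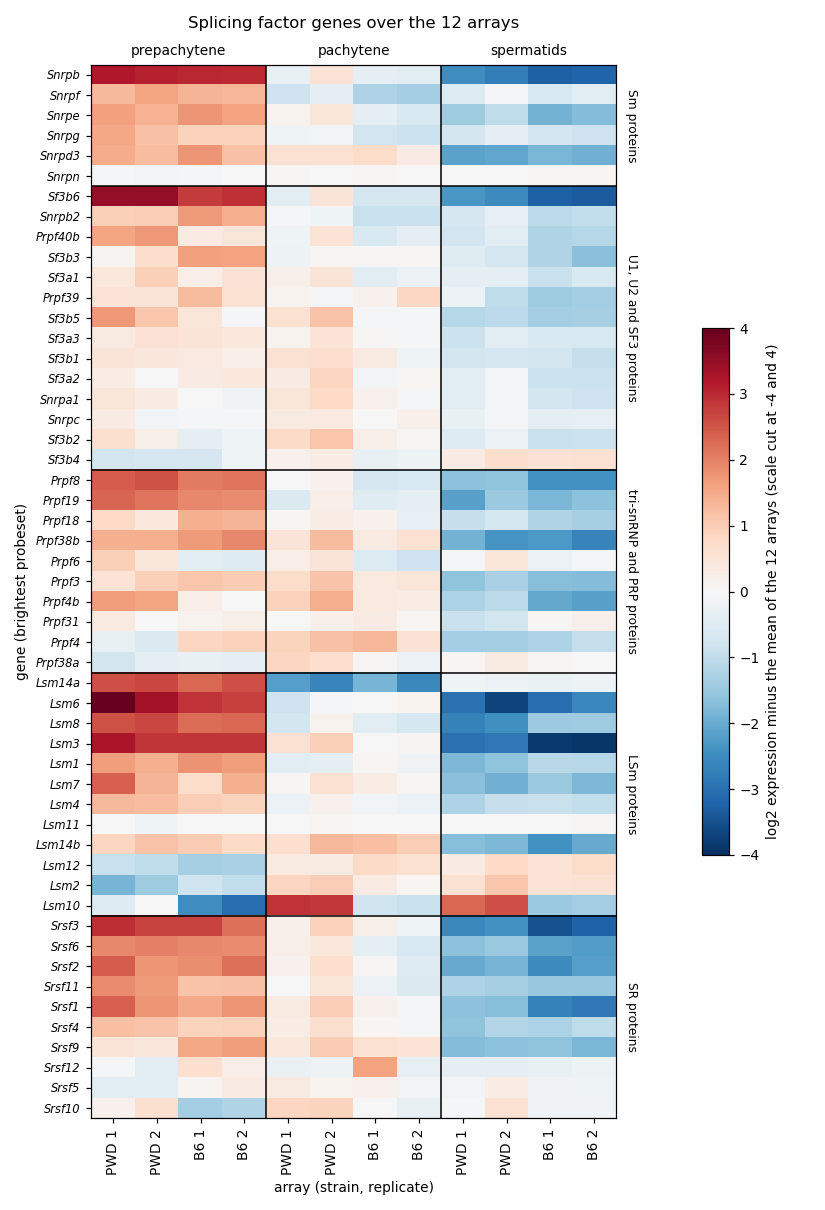
Log2 expression of the 52 genes (rows, by role) on the 12 arrays (columns, by population, with PWD left of B6), each as the difference from the gene's mean over all arrays. Most rows run from red in prepachytene spermatocytes to blue in spermatids, while *Lsm10*, *Lsm2* and *Lsm12* are lowest in the prepachytene cells of each strain. *Sf3b4* is lowest there by group means only, as its B6 prepachytene and pachytene arrays overlap.

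Between prepachytene and pachytene spermatocytes, 37 of the 52 genes changed over both strains, 9 upwards and 28 downwards (limma, adjusted p under 0.05). Over all genes 72.2% were called, 43.7% higher and 28.4% lower, and over the genes above the background level 83.1%, with 43.1% higher and 40.0% lower. The share called among the splicing genes was thus near the background, and the split of directions was the reverse of that over all genes. The median log fold-change of the 52 genes was -0.67, against 0.08 over all genes. All 4 pachytene arrays lay outside the range of the 4 prepachytene arrays for 29 genes, above it for 4 and below it for 25. These 29 were 55.8% of the splicing genes, against 63.4% of all genes and 64.4% of those above the background level. Of single probesets, 31 of 136 were higher and 67 lower, against 44.3% and 24.6% of all probesets.

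Between pachytene spermatocytes and spermatids, 41 of the 52 genes changed, 3 upwards and 38 downwards (limma). Here 42.0% of all genes were called (18.2% higher, 23.8% lower), and 71.2% of those above the background level (25.3% higher, 45.9% lower). The median log fold-change was -1.16, against -0.37 over the genes above the background level and 0.01 over all genes. The spermatid arrays stood apart from the pachytene arrays for 35 genes, above them for 2 and below them for 33. These 35 were 67.3% of the splicing genes, against 31.0% of all genes and 54.7% of those above the background level. By probeset, 8 of 136 were higher and 85 lower, against 12.1% and 18.4% of all probesets. Without replicate 1 of PWD pachytene spermatocytes, 9 genes rose and 26 fell into pachytene, and 2 rose and 37 fell into spermatids.

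Taking both steps, 24 genes fell at each of them. They were *Lsm1*, *Lsm3*, *Lsm4*, *Lsm6*, *Lsm7*, *Lsm8*, *Snrpb*, *Snrpd3*, *Snrpe*, *Sf3a1*, *Sf3b3*, *Sf3b6*, *Prpf8*, *Prpf18*, *Prpf19*, *Prpf38b*, *Prpf40b*, *Srsf1*, *Srsf2*, *Srsf3*, *Srsf4*, *Srsf6*, *Srsf9* and *Srsf11*. A further 11 fell only at the step to spermatids by the threshold, without a call at the earlier step (*Lsm14b*, *Prpf3*, *Prpf4b*, *Prpf31*, *Prpf39*, *Sf3a2*, *Sf3a3*, *Sf3b1*, *Sf3b5*, *Snrpa1* and *Snrpc*). *Snrpg* and *Snrpb2* fell into pachytene and were not called afterwards, and *Lsm14a* and *Snrpf* fell and then rose. *Lsm10*, *Sf3b2* and *Prpf4* rose and then fell, 5 genes rose with no later call (*Lsm2*, *Lsm12*, *Srsf10*, *Prpf38a* and *Snrpn*), and *Sf3b4* rose at both steps. Some of these calls over both strains rest on 1 strain. The calls into pachytene of *Sf3b2*, *Prpf4*, *Prpf38a* and *Sf3b4* were lost in B6 arrays alone. In PWD arrays alone, those of *Srsf10*, *Prpf38b* and *Sf3b3* were lost, and the change of *Srsf9* was reversed. The calls into spermatids of *Sf3b3*, *Sf3b4* and *Snrpf* were lost in PWD arrays alone, so that *Sf3b3* was called there at neither step. That of *Prpf31* was lost in B6 arrays alone, and that of *Lsm10* in the arrays of either strain alone. Calls of further genes were lost in some alternatives, such as that of *Lsm7* into pachytene in 1 of 23. No call was made at either step for *Lsm11*, *Srsf12*, *Srsf5* and *Prpf6*, of which the first pair lay below the background level.

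**Figure D2:**
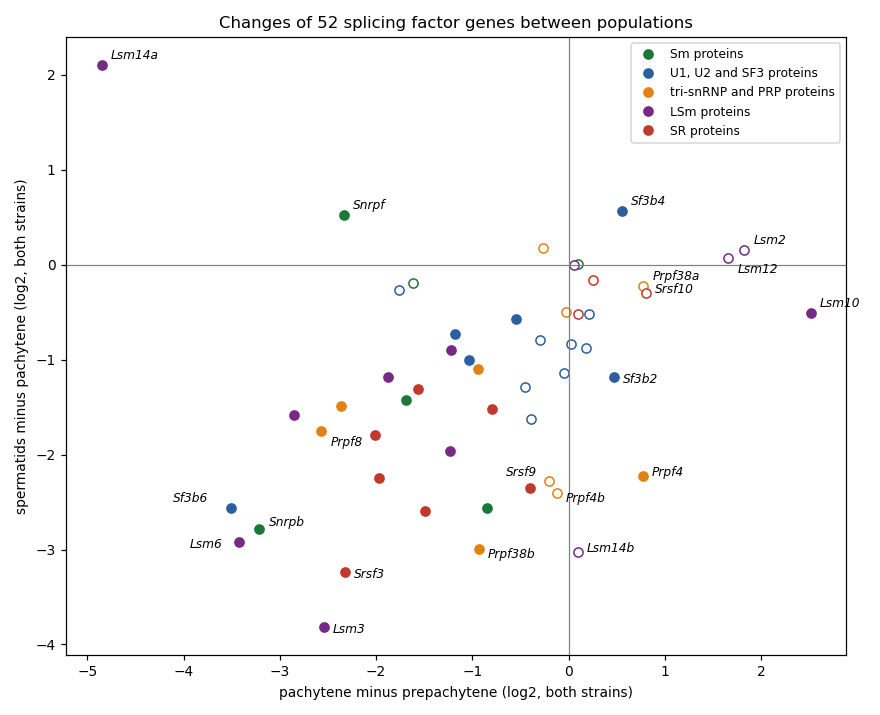
Log fold-change of each of the 52 genes from prepachytene to pachytene spermatocytes (x axis, log2) and from pachytene spermatocytes to spermatids (y axis, log2), means of both strains, coloured by role; filled points were called at both steps. The 24 genes that fell at both steps lie at the lower left, *Lsm14a* stands alone at -4.85 and 2.10, and *Lsm10* stands at the far right at 2.52.

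Of the 6 genes of Sm proteins, which form the ring on the U1, U2, U4 and U5 snRNAs, 5 fell and 1 rose into pachytene, and 3 fell and 1 rose into spermatids. *Snrpb*, for the SmB protein, had 14.83 and 14.72 in PWD and 14.64 and 14.63 in B6 prepachytene spermatocytes, 11.34 and 12.20 in PWD and 11.24 and 11.20 in B6 pachytene spermatocytes, and 9.16 and 8.87 in PWD and 8.39 and 8.45 in B6 spermatids. The arrays of the 3 populations did not overlap, and the gene fell at both steps (log fold-change -3.21 ± 0.17, adjusted p = 1.10e-06, then log fold-change -2.78 ± 0.17, adjusted p = 8.85e-06). *Snrpe* (SmE) changed by -1.69 and -1.42 and *Snrpd3* (SmD3) by -0.84 and -2.57, with adjusted p of 0.00158 or less in limma. For *Snrpf* (SmF), values were 12.97 and 13.26 in PWD and 13.03 and 13.00 in B6 prepachytene spermatocytes, 10.84 and 11.30 in PWD and 10.46 and 10.31 in B6 pachytene spermatocytes, and 11.14 and 11.60 in PWD and 11.06 and 11.23 in B6 spermatids. Its pachytene arrays lay below all prepachytene arrays (log fold-change -2.34 ± 0.15, adjusted p = 2.65e-06), and the later rise passed the threshold (log fold-change 0.53 ± 0.15, adjusted p = 0.0248) although the arrays overlapped. The call of this rise was lost in 6 of 23 alternatives, PWD arrays alone among them. *Snrpg* (SmG) fell into pachytene (log fold-change -1.61 ± 0.11, adjusted p = 3.48e-06) and differed by -0.19 ± 0.11 afterwards, with no call. *Snrpn*, which encodes the SmN protein of neurons, lay at 2.26 to 2.44 on all arrays, and its call of 0.10 into pachytene was a difference at the floor of the scale.

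Among the 14 genes of U1, U2 and SF3 proteins, 5 fell and 2 rose into pachytene, and 12 fell and 1 rose into spermatids. *Sf3b6* encodes the small SF3B protein that sits at the branch point adenosine, and it gave 13.39 and 13.39 in PWD and 12.66 and 12.78 in B6 prepachytene spermatocytes, 9.43 and 10.40 in PWD and 9.19 and 9.20 in B6 pachytene spermatocytes, and 7.52 and 7.32 in PWD and 6.59 and 6.53 in B6 spermatids. Replicate 1 of PWD pachytene spermatocytes was closer to the B6 arrays than to its duplicate, yet the 3 populations stayed apart, and the log fold-changes were -3.50 ± 0.19 and -2.56 ± 0.19 (adjusted p = 1.19e-06 and 2.13e-05). The other SF3B genes moved less at the first step. *Sf3b1*, whose large protein clamps the branch helix, had 14.08 and 14.03 in PWD and 13.97 and 13.84 in B6 prepachytene spermatocytes, 14.19 and 14.23 in PWD and 13.91 and 13.40 in B6 pachytene spermatocytes, and 12.83 and 12.88 in PWD and 12.84 and 12.62 in B6 spermatids. Prepachytene and pachytene arrays overlapped (log fold-change -0.05 ± 0.11, adjusted p = 0.725), and the spermatid arrays were all lower (log fold-change -1.14 ± 0.11, adjusted p = 9.06e-05). *Sf3b5* also fell at the second step only by the threshold (log fold-change -1.63 ± 0.19, adjusted p = 2.48e-04), and *Sf3b2* rose by 0.47 ± 0.12 and then fell by 1.18 on the log2 scale. The rise of *Sf3b2* was not called in B6 arrays alone.

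*Sf3b4*, for the SF3B protein next to the branch point, took the opposite course, with 10.26 and 10.29 in PWD and 10.32 and 10.81 in B6 prepachytene spermatocytes, 11.14 and 11.27 in PWD and 10.69 and 10.79 in B6 pachytene spermatocytes, and 11.32 and 11.68 in PWD and 11.57 and 11.60 in B6 spermatids. Spermatid arrays stood above all pachytene arrays, while pachytene and prepachytene arrays overlapped, and both rises passed the threshold (log fold-change 0.55 ± 0.13, adjusted p = 0.006, and log fold-change 0.57 ± 0.13, adjusted p = 0.00958). Taken by strain, the first change was 0.93 in PWD and 0.17 in B6 and the second 0.29 and 0.85, and the interaction of strain and population was not called (adjusted p = 0.13). *Snrpb2*, for a protein of the U2 snRNP, fell into pachytene (log fold-change -1.77 ± 0.11, adjusted p = 2.04e-06) and was not called afterwards, and *Snrpa1*, for its partner there, fell into spermatids alone by the threshold (log fold-change -0.87 ± 0.12, adjusted p = 4.92e-04). *Snrpc*, for a protein specific to the U1 snRNP, differed by 0.22 ± 0.11 at the first step with no call and by -0.51 ± 0.11 at the second with one. *Prpf39*, named for a yeast U1 protein, had a mean of 5.87 on its brightest probeset, below the background level of 6.05, so that the size of its change into spermatids is not reliable.

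Of the 10 genes of the tri-snRNP and other PRP proteins, 4 fell and 2 rose into pachytene, and 8 fell and none rose into spermatids. *Prpf8* encodes the U5 protein at the catalytic centre of the spliceosome, and its values were 13.12 and 13.24 in PWD and 12.78 and 12.83 in B6 prepachytene spermatocytes, 10.71 and 10.88 in PWD and 10.03 and 10.07 in B6 pachytene spermatocytes, and 9.04 and 9.10 in PWD and 8.26 and 8.29 in B6 spermatids. The 3 populations did not overlap, PWD stood above B6 in each, and the log fold-changes were -2.57 ± 0.07 and -1.75 ± 0.07 (adjusted p = 4.73e-08 and 2.01e-06). *Prpf19*, for the ubiquitin ligase of the activation complex, fell by 2.37 and 1.48 on the log2 scale, and *Prpf38b* by 0.93 and 3.00.

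*Prpf4* and *Prpf4b*, a U4 and U6 protein and the kinase that acts on the tri-snRNP, both fell at the second step. Only *Prpf4* was called at the first step, as a rise that was lost in B6 arrays alone. *Prpf4* had 6.29 and 6.02 in PWD and 7.43 and 7.49 in B6 prepachytene spermatocytes, 7.49 and 7.74 in PWD and 7.91 and 7.18 in B6 pachytene spermatocytes, and 5.22 and 5.24 in PWD and 5.36 and 5.63 in B6 spermatids. The pachytene and prepachytene arrays overlapped, with both PWD prepachytene arrays low, and the spermatid arrays lay below the background level (log fold-change 0.77 ± 0.18, adjusted p = 0.00579, and log fold-change -2.22 ± 0.18, adjusted p = 3.09e-05), so that the size of the second change is not reliable. *Prpf4b* did not pass the threshold into pachytene (-0.12 ± 0.14) and fell into spermatids (log fold-change -2.40 ± 0.14, adjusted p = 6.29e-06). *Prpf38a*, for a protein that joins with the tri-snRNP, rose into pachytene (log fold-change 0.78 ± 0.12, adjusted p = 7.96e-04) and was not called at the second step. Its rise was not called in B6 arrays alone. *Prpf6*, for the U5 protein that bridges to U4 and U6, gave no call at either step (-0.26 ± 0.16 and 0.18 ± 0.16), and *Prpf31*, which binds the U4 snRNA, fell by 0.50 ± 0.12 into spermatids. The call of *Prpf31* was lost in B6 arrays alone and with centred arrays.

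LSm proteins form the ring on the U6 snRNA (*Lsm2*, *Lsm3*, *Lsm4*, *Lsm6*, *Lsm7* and *Lsm8* here), and with *Lsm1* in place of *Lsm8* the same proteins take part in mRNA decay. Of the 12 genes chosen, 7 fell and 3 rose into pachytene, and 8 fell and 1 rose into spermatids. *Lsm3* had 14.02 and 13.61 in PWD and 13.60 and 13.61 in B6 prepachytene spermatocytes, 11.34 and 11.69 in PWD and 10.77 and 10.87 in B6 pachytene spermatocytes, and 7.77 and 7.90 in PWD and 6.88 and 6.87 in B6 spermatids. The populations were separate on every array, and the log fold-changes were -2.54 ± 0.12 and -3.81 ± 0.12 (adjusted p = 4.73e-07 and 7.07e-07). *Lsm6* changed by -3.43 and -2.92, with 5.14 and 4.44 in PWD and 5.09 and 5.52 in B6 spermatids, all below the background level, so that the size of the second change is not reliable. *Lsm8*, *Lsm1* and *Lsm4* fell at both steps as well, with log fold-changes of -2.86 and -1.58, -1.88 and -1.18, and -1.22 and -0.90.

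*Lsm2* was the exception in this ring, with 8.49 and 8.93 in PWD and 9.55 and 9.38 in B6 prepachytene spermatocytes, 11.21 and 11.35 in PWD and 10.67 and 10.43 in B6 pachytene spermatocytes, and 10.97 and 11.45 in PWD and 10.92 and 10.93 in B6 spermatids. Every pachytene array lay above every prepachytene array (log fold-change 1.82 ± 0.15, adjusted p = 1.21e-05), and the second step was not called (0.15 ± 0.15). *Lsm12*, which is not part of the U6 ring, followed the same course (log fold-change 1.66 ± 0.12, adjusted p = 6.68e-06, then 0.07 ± 0.12 with no call).

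The remaining LSm genes encode proteins that are not part of the spliceosome. *Lsm14a* and *Lsm14b* encode RNA-binding proteins of stored and translationally repressed mRNA, and *Lsm10* and *Lsm11* the LSm proteins of the U7 snRNP, which processes histone pre-mRNA. *Lsm14a* (chr7:34344144-34390026, GRCm38) gave 13.43 and 13.53 in PWD and 13.13 and 13.41 in B6 prepachytene spermatocytes, 8.66 and 8.19 in PWD and 8.98 and 8.28 in B6 pachytene spermatocytes, and 10.67 and 10.62 in PWD and 10.58 and 10.65 in B6 spermatids. The pachytene arrays were the lowest and the prepachytene arrays the highest, without overlap, and the fall of 28.8-fold was followed by a rise of 4.29-fold (log fold-change -4.85 ± 0.17, adjusted p = 1.25e-07, and log fold-change 2.10 ± 0.17, adjusted p = 3.55e-05). All 3 of its probesets above the background level moved in these directions, by -4.93 to -2.67 and by 2.10 to 2.93. *Lsm14b* showed no call into pachytene (0.10 ± 0.17) and fell into spermatids (log fold-change -3.02 ± 0.17, adjusted p = 6.21e-06).

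*Lsm10* (chr4:126096562-126098584, GRCm38), with 1 probeset on the array, had 9.35 and 9.86 in PWD and 7.38 and 6.81 in B6 prepachytene spermatocytes, 12.75 and 12.68 in PWD and 9.07 and 8.95 in B6 pachytene spermatocytes, and 12.14 and 12.43 in PWD and 8.37 and 8.48 in B6 spermatids. It rose by 5.72-fold into pachytene (log fold-change 2.52 ± 0.16, adjusted p = 3.47e-06), although the PWD prepachytene arrays stood above the B6 pachytene arrays so that the populations overlapped over both strains. Within each strain the pachytene arrays were higher than the prepachytene arrays, by 3.12 in PWD and 1.92 in B6. The small fall into spermatids (log fold-change -0.51 ± 0.16, adjusted p = 0.0475) was lost in 15 of 23 alternatives. *Lsm11* lay at 5.19 to 5.42 on all arrays, below the background level.

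SR proteins carry a domain rich in arginine and serine, through which they contact each other and the spliceosome. Of their 10 genes, 7 fell and 1 rose into pachytene, and 7 fell and none rose into spermatids. *Srsf3* had 14.16 and 13.91 in PWD and 13.91 and 13.42 in B6 prepachytene spermatocytes, 11.43 and 12.14 in PWD and 11.46 and 11.06 in B6 pachytene spermatocytes, and 8.63 and 8.79 in PWD and 7.73 and 7.97 in B6 spermatids. Its 3 populations did not overlap (log fold-change -2.33 ± 0.19, adjusted p = 1.56e-05, and log fold-change -3.24 ± 0.19, adjusted p = 7.51e-06). *Srsf6* fell by 2.01 and 1.79 on the log2 scale, *Srsf1* fell by 1.49 and 2.59, and *Srsf9* fell by 0.40 and 2.35, of which the first change of *Srsf9* rests on the B6 arrays (0.23 in PWD and -1.02 in B6). *Srsf5* had 12.72 and 12.75 in PWD and 13.30 and 13.51 in B6 prepachytene spermatocytes, 13.53 and 13.33 in PWD and 13.34 and 13.08 in B6 pachytene spermatocytes, and 13.07 and 13.48 in PWD and 13.05 and 13.02 in B6 spermatids. The 2 PWD prepachytene arrays were the lowest of the 12, the other groups overlapped, and neither step was called (0.25 ± 0.11 and -0.16 ± 0.11).

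**Figure D3:**
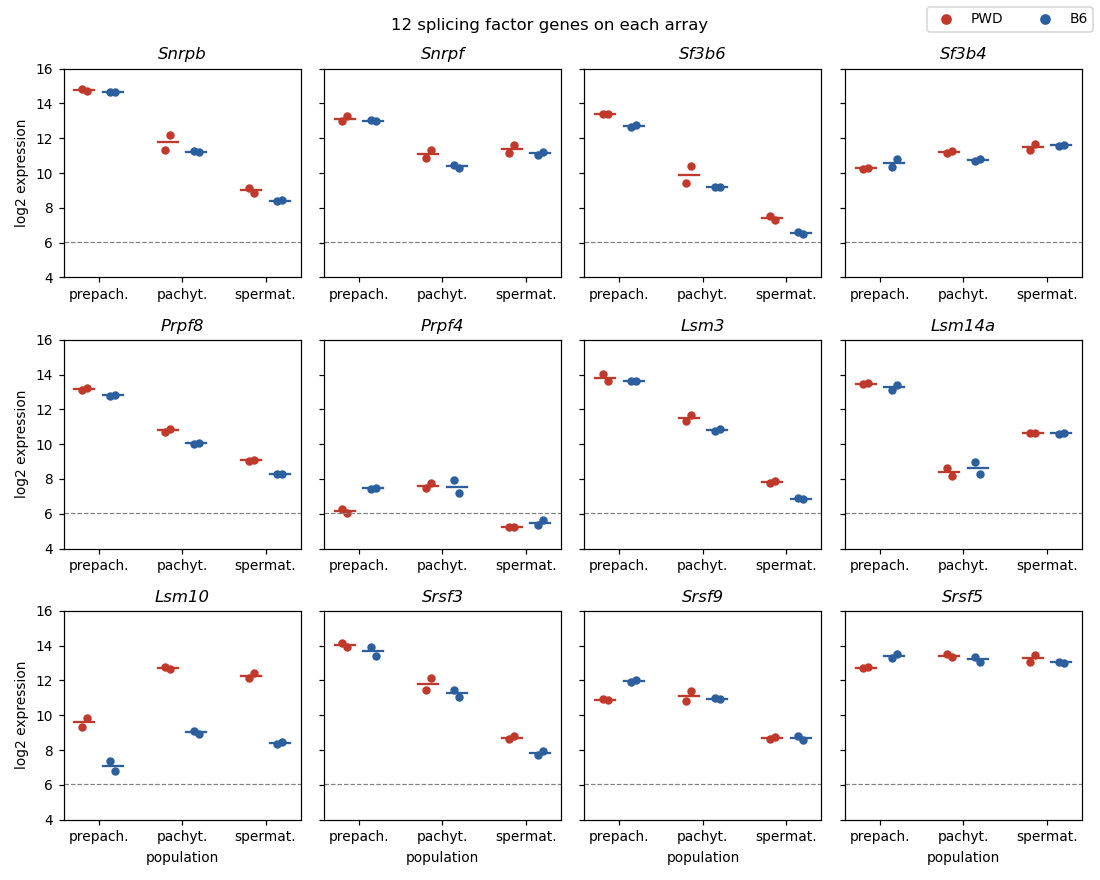
Log2 expression (y axis) of 12 genes on each of the 12 arrays in prepachytene spermatocytes, pachytene spermatocytes and spermatids (x axis), PWD in red left of B6 in blue; points are arrays, bars are means of 2, with a dashed line at 6.05 for the background level. *Snrpb*, *Sf3b6*, *Prpf8*, *Lsm3* and *Srsf3* descend at both steps, *Lsm14a* dips in pachytene cells, and the PWD points of *Lsm10* stand 2.51 to 3.86 above those of B6.

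Probesets of 1 gene can lie at different places of its transcripts, and 23 of the 52 genes had more than 1 above the background level. At the step into pachytene, these probesets were all called in 1 direction for 11 genes and called in opposite directions for *Srsf10* and *Srsf11*. For the other 10 they were called in part or, for *Prpf6* and *Sf3b5*, not at all. For *Srsf10*, the brightest probeset rose (log fold-change 0.80 ± 0.16, adjusted p = 0.00303), a further one rose by 0.50, and another fell (-2.33). With the mean of all probesets in place of the brightest, the change of *Srsf10* was -0.81, the reverse of the first. *Srsf11* fell on its brightest probeset (log fold-change -1.56 ± 0.13, adjusted p = 1.56e-05) and rose on another (1.78). At the step into spermatids, 13 genes had all such probesets called in 1 direction and *Srsf2* had calls in both. The other 9 had them called in part or, for *Prpf6* and *Snrpb2*, not at all. The brightest probeset of *Srsf2* fell (log fold-change -2.25 ± 0.21, adjusted p = 7.77e-05), while 2 others rose by 1.61 and 1.55. These genes are therefore uncertain in direction, and transcripts cut or ended at different places were not told apart here. The brightest probeset was of a kind that can match several transcripts or related genes for 8 members (such as *Snrpb*, *Snrpe*, *Snrpg* and *Lsm14a*) and of the kind most open to cross-hybridization for 3 (*Sf3b2*, *Prpf6* and *Prpf19*).

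**Figure D4:**
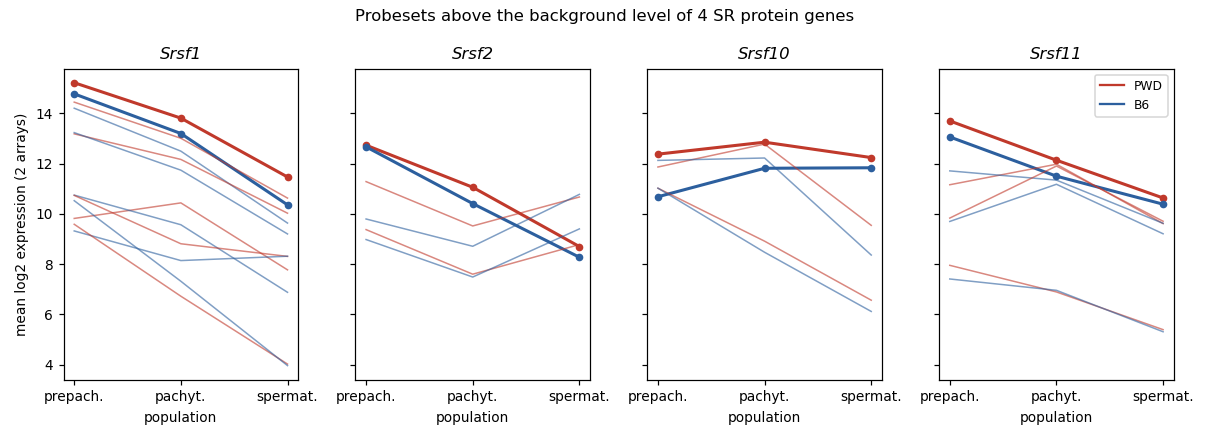
Mean log2 expression of 2 arrays (y axis) in the 3 populations (x axis) for each probeset above the background level of *Srsf1*, *Srsf2*, *Srsf10* and *Srsf11*, PWD in red and B6 in blue; the thick line with points is the brightest probeset. The lines of *Srsf2* diverge in spermatids, where the brightest fell by 2.25 and the others rose, and those of *Srsf10* and *Srsf11* diverge in pachytene spermatocytes.

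Promoter windows of RefSeq (GRCm38.p6, 300 bases, nominally 250 before to 50 after a start) were found for 45 of the 52 genes. For some genes this start is not the boundary of the gene as given above. The window of *Lsm10* reaches further into the gene, and that of *Lsm14a* lies wholly within it. Of 5 motifs searched on both strands, the ETS motif CCGGAAG was present in 16 of the 45, 35.6%, against 9.12% of all 27025 windows and 21.5% of those of genes above the background level. The GC box GGGCGG was in 66.7%, against 35.9% and 63.3%, the CCAAT box CCAAT in 44.4%, against 37.9% and 40.0%, the TATA box TATAAA in 6.67%, against 14.2% and 6.41%, and the cAMP response element TGACGTCA in 2.22%, against 1.88% and 3.88%. Of the genes that fell at both steps, 7 of 20 with a window held the ETS motif, and of those not called and then lower, 4 of 10. The windows of 4 genes are shown to set the gene with the widest rise into pachytene beside 3 that fell at both steps. Capitals mark matches to any of the 5 motifs on either strand, and a match is a description of letters only.
*Lsm10* (chr4:126096403-126096702, strand +): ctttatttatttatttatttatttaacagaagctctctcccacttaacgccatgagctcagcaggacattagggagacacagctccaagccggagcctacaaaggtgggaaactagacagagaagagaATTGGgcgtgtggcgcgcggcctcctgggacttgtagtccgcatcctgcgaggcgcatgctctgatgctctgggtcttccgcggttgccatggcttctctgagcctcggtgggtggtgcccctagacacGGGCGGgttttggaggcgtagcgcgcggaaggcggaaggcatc
*Sf3b6* (chr12:4817358-4817657, strand +): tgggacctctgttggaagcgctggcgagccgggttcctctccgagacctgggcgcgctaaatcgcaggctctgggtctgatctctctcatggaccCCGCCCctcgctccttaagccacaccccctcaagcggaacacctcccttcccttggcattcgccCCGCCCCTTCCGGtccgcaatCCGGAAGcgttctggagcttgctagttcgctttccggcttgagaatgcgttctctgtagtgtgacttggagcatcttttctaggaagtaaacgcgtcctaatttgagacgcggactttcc
*Snrpe* (chr1:133610231-133610530, strand -): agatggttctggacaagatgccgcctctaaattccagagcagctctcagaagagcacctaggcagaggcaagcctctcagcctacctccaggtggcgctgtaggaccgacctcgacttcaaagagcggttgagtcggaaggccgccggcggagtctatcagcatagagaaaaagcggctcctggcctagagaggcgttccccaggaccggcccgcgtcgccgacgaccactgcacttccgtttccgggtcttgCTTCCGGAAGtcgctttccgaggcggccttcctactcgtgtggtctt
*Prpf8* (chr11:75486527-75486826, strand +): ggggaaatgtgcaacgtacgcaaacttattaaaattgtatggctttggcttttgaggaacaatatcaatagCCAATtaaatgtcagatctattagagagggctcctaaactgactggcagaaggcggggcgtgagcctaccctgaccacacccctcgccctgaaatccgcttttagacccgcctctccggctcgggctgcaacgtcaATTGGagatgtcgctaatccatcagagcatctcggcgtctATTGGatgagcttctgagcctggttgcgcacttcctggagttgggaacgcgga
The window of *Lsm10* held a GC box and a CCAAT box and no ETS motif. That of *Sf3b6* held 2 ETS motifs, of which the first directly follows a GC box, and that of *Snrpe* held 2 that overlap on opposite strands. The window of *Prpf8* held 3 CCAAT boxes and none of the other motifs.

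Fewer of the splicing genes were called between strains than between populations, as was the case over all genes. Of all genes, 72.2% were called into pachytene and 42.0% into spermatids. Between strains, 22.5% were called in prepachytene spermatocytes, 17.2% in pachytene spermatocytes and 17.1% in spermatids. Each strain comparison used fewer arrays per side than a comparison of populations, with larger standard errors. The lower counts are therefore not evidence of smaller differences. The strain counts also depended on the scaling of the arrays. As deposited, the median PWD versus B6 difference of 13165 probesets above the background level was 0.26 in prepachytene spermatocytes, 0.39 in pachytene spermatocytes and 0.11 in spermatids, and after a further quantile normalization it was 0.042, 0.069 and 0.084. The medians over the splicing genes were 0.14, 0.52 and 0.26 as deposited, and -0.04, 0.10 and 0.25 after that normalization.

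In prepachytene spermatocytes, 16 genes differed between the strains, 9 higher and 7 lower in PWD (limma). Over all genes 22.5% were called, 16.6% higher and 5.88% lower, and over those above the background level 34.0% (25.7% and 8.23%). Both further scalings gave 7 higher and 9 lower, and by probeset 15 of 136 were higher and 17 lower, against 11.9% and 6.72% of all probesets (18.6% in either direction). The higher genes were *Lsm10* (2.51 ± 0.23), *Srsf10* (1.70 ± 0.23), *Prpf4b* (1.51 ± 0.19), *Prpf40b*, *Prpf6*, *Sf3b5*, *Sf3b2*, *Srsf11* and *Prpf8*, down to 0.37. The lower genes were *Prpf4* (-1.31 ± 0.25), *Sf3b3* (-1.21 ± 0.23), *Srsf9* (-1.11 ± 0.19), *Prpf18*, *Lsm2*, *Srsf5* and *Snrpb2*, the last at -0.61. Of these 16 calls, 7 were kept when each array was left out in turn (*Lsm10*, *Srsf10*, *Prpf4b*, *Prpf6*, *Sf3b3*, *Srsf9* and *Prpf4*), and the count was 9 without replicate 1 of PWD or either replicate of B6 prepachytene spermatocytes. Sertoli cell markers had array medians of 6.30 and 7.03 in PWD and 5.03 and 5.12 in B6 prepachytene spermatocytes, and like the spermatogonia markers they stood higher in PWD. Their part in these differences was not tested.

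In pachytene spermatocytes, 12 genes were higher and none lower in PWD (limma), against 12.1% and 5.05% of all genes and 22.7% and 5.84% of those above the background level (17.2% and 28.5% called in either direction). After a further quantile normalization 2 were higher and 2 lower, and with the arrays centred 9 were higher and 3 lower, so that the direction of this group is not settled. By probeset 26 of 136 were higher and 4 lower, against 8.64% and 4.19% of all probesets (12.8% in either direction). Calls for *Lsm10* and *Srsf6* (0.83 ± 0.13) were kept under both scalings, and those for *Lsm10*, *Prpf8* (0.74 ± 0.11) and *Srsf6* when each array was left out. The remaining calls were *Prpf6*, *Srsf10*, *Prpf38a*, *Prpf4b*, *Snrpe*, *Sf3b2*, *Snrpb2*, *Lsm3* and *Snrpg*, at 1.08 down to 0.67. The count was 16 without replicate 1 of PWD, 5 without replicate 2 of PWD, 7 without replicate 1 of B6 and 4 without replicate 2 of B6 pachytene spermatocytes. The pachytene and diplotene markers had array medians of 12.90 and 12.96 in PWD and 12.29 and 12.44 in B6 pachytene spermatocytes (11 and 12 of 12 above the background level). Those of prepachytene cells had 6.76 and 8.21 in PWD and 6.55 and 7.13 in B6 (7 of 12 in each), and the part of these cells in these differences was not tested.

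In spermatids, 6 genes were higher and 3 lower in PWD (limma), against 9.56% and 7.54% of all genes and 16.1% and 8.76% of those above the background level (17.1% and 24.9% in either direction). The higher genes were *Lsm10*, *Srsf1* (1.11 ± 0.25), *Lsm3* (0.96 ± 0.17), *Prpf4b* (0.94 ± 0.19), *Prpf8* (0.80 ± 0.11) and *Srsf6* (0.63 ± 0.13). The lower genes were *Lsm8* (-1.13 ± 0.26), *Prpf31* (-0.94 ± 0.16) and *Lsm1* (-0.57 ± 0.14). By probeset 16 of 136 were higher and 7 lower, against 6.36% and 5.52% of all probesets (11.9% in either direction). All 9 calls were kept under both further scalings, which gave 10 and 9 higher and 3 lower. *Lsm10*, *Prpf8* and *Lsm3* kept their calls in all 21 alternatives, and the count was 4 without replicate 2 of PWD and 3 without replicate 2 of B6 spermatids. The spermatid markers had array medians of 12.43 and 12.84 in PWD and 13.18 and 13.27 in B6 spermatids. In the same cells, those of prepachytene markers were 8.23 and 8.50 in PWD and 6.38 and 6.88 in B6 (7 and 6 of 12 above the background level), and those of Sertoli cell markers 4.60 and 5.04 in PWD and 4.11 and 4.23 in B6 (3 and 2 of 10). The part of these cells in these differences was not tested.

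*Lsm10* was higher in PWD than in B6 in all 3 populations, by 5.68-fold in prepachytene spermatocytes, 13.1-fold in pachytene spermatocytes and 14.5-fold in spermatids (adjusted p = 2.38e-04, 4.10e-05 and 2.34e-05, limma). The arrays of the strains were separate in each population, and all 3 calls held in each of the 21 alternatives. It has only 1 probeset, so that a second place of the transcript was not measured. *Prpf4b* was also called in all 3 populations, and all 4 of its probesets above the background level were higher in PWD pachytene spermatocytes, by 0.86 to 1.67. *Prpf8* was called in each of the 3 as well, but in prepachytene spermatocytes the call was lost in 17 of 21 alternatives.

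For several genes the strain difference depended on the probeset. *Srsf1* had a probeset higher in PWD prepachytene spermatocytes by 1.42 and another at -0.93, both called, while its brightest was not. *Prpf19* was not called on its brightest probeset (0.33 ± 0.30), and 2 others stood at 10.96 and 10.85 in PWD and 13.05 and 13.03 in B6 prepachytene spermatocytes. *Snrpd3* gave -0.11 ± 0.21 on its brightest probeset, against -4.75 and -4.63 on 2 dim ones, which lay below the background level in PWD and above it in B6. *Sf3b4* had a second probeset at 4.20 in PWD and 8.25 in B6 prepachytene spermatocytes that differed by 0.07 in spermatids. Whether sequence differences of PWD under the probes took part was not tested.

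**Figure D5:**
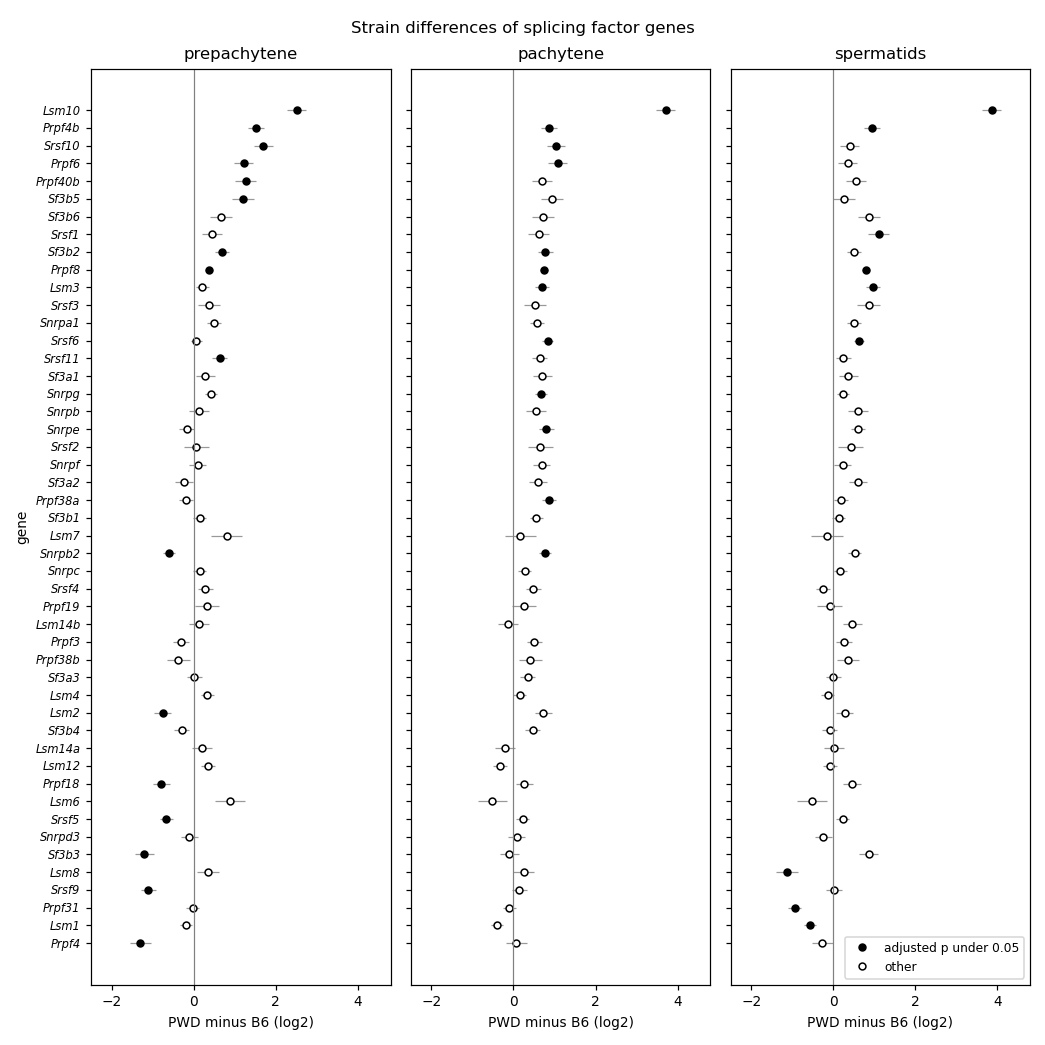
PWD minus B6 difference (x axis, log2, with standard error) of the 48 genes above the background level (rows) in prepachytene spermatocytes, pachytene spermatocytes and spermatids; filled points passed the threshold. *Lsm10* stands apart at the top in all 3 panels (2.51, 3.71 and 3.86), and in pachytene spermatocytes the filled points all lie on the PWD side.

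The strain difference depended on the population for 11 of the 52 genes (F test of the interaction in limma), against 20.1% of all genes and 24.4% of those above the background level, and for 28 of 136 probesets, against 16.6% of all probesets. *Snrpb2* had 12.15 and 12.18 in PWD and 12.90 and 12.64 in B6 prepachytene spermatocytes, 11.16 and 11.02 in PWD and 10.32 and 10.31 in B6 pachytene spermatocytes, and 10.52 and 10.89 in PWD and 10.13 and 10.23 in B6 spermatids. PWD was lower in prepachytene spermatocytes and higher in the other populations, without overlap in any, and the change into pachytene was -1.07 in PWD and -2.46 in B6 (interaction adjusted p = 0.00684). *Sf3b3*, for the large scaffold protein of SF3B, had 8.92 and 9.51 in PWD and 10.44 and 10.41 in B6 prepachytene spermatocytes, 8.60 and 8.89 in PWD and 8.84 and 8.85 in B6 pachytene spermatocytes, and 8.32 and 8.12 in PWD and 7.58 and 7.12 in B6 spermatids. Its strain difference was -1.21 in prepachytene spermatocytes, -0.10 in pachytene spermatocytes and 0.87 in spermatids, and the PWD arrays changed less over the 3 stages (interaction adjusted p = 0.0111). *Srsf9* gave 10.91 and 10.85 in PWD and 11.92 and 12.05 in B6 prepachytene spermatocytes, 10.82 and 11.40 in PWD and 11.00 and 10.93 in B6 pachytene spermatocytes, and 8.64 and 8.75 in PWD and 8.78 and 8.56 in B6 spermatids. The strains differed in prepachytene spermatocytes only by the threshold, and the interaction itself was called (adjusted p = 0.0256). Calls of *Snrpb2* and *Sf3b3* were kept when each array was left out in turn, and the count of genes was then 2 to 8, with 2 without replicate 1 of B6 prepachytene spermatocytes or replicate 2 of B6 spermatids.

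Beyond the genes chosen by symbol, 129 of 142 other genes of the splicing pathway were measured, 114 of them above the background level. Of the 129, 30 rose and 70 fell into pachytene, and 15 rose and 69 fell into spermatids. The shares to set beside these counts, and beside those of each list below, are as follows. Into pachytene, 43.7% of all genes rose and 28.4% fell, and 43.1% and 40.0% of those above the background level. Into spermatids, the shares were 18.2% and 23.8%, and 25.3% and 45.9%. Of the 10 measured genes of snRNP assembly, 2 rose and 5 fell into pachytene. *Tgs1*, for the enzyme that hypermethylates the snRNA cap, fell to 3.88 in pachytene, against 11.27 in prepachytene spermatocytes (log fold-change -7.39 ± 0.21, adjusted p = 4.63e-08), and *Coil*, for the Cajal body protein coilin, rose (log fold-change 2.81 ± 0.12, adjusted p = 3.85e-07). *Wdr77*, which binds Sm proteins for their methylation, was lower in pachytene spermatocytes (-2.53), and *Prmt5*, the enzyme of that step, was lower in spermatids (-3.37). The pachytene value of *Tgs1* lay below the background level, so that the size of its fall is not reliable.

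Of the 11 measured genes of the U5 and tri-snRNP list, 7 fell into pachytene and 7 into spermatids, among them *Snrnp40* (-1.92 and -2.52) and *Snrnp200*, for the helicase that unwinds U4 from U6 (-0.97 and -1.83). *Txnl4b* rose into pachytene (log fold-change 2.43 ± 0.13, adjusted p = 1.12e-06). Of the 13 branch point and U2 genes, 8 fell and 2 rose into pachytene, with *Cherp* at -2.58, *U2af1*, for the small U2AF protein, at -2.14, and *Sf1*, which binds the branch point first, at 1.23. By strain, *Sf1* changed by 2.11 in PWD and 0.35 in B6, where it was not called (adjusted p = 0.557, limma), and the arrays of the populations overlapped. The 10 exon junction and export genes had the lowest median at the step into spermatids of the 8 lists (-2.07, 8 of 10 lower), with *Casc3* (-3.97) and *Alyref* (-3.57) at the front. Spermatid arrays of *Casc3* and the B6 spermatid arrays of *Alyref* lay below the background level, so that the sizes are not reliable. Among kinases of SR proteins, *Clk2* fell (log fold-change -4.31 ± 0.16, adjusted p = 1.71e-07) and *Srpk1* rose (log fold-change 1.18 ± 0.08, adjusted p = 5.52e-06) into pachytene, and *Clk4* rose into spermatids (log fold-change 2.09 ± 0.10, adjusted p = 3.69e-06).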

How the data were processed

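The authors deposited log2 expression values of 12 arrays. The submitters' processing notes name GCRMA, whereas the methods name RMA and another array type for this step, and the version is not given in the sources used here. GCRMA corrects background by probe sequence and normalizes quantiles over arrays, which can shift values where the RNA content of the populations differs. RNA of 15 to 40 ng per sample had been amplified in 2 cycles, which favours the ends of transcripts.

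Group means of the deposited log2 values were compared in limma (version 3.58.1, R 4.3.3) over 45037 probesets, after removal of 64 controls. The variance prior was allowed to depend on mean level, and Benjamini-Hochberg adjustment was made within each comparison (threshold 0.05). Further steps ran in Python 3.11.15 (numpy 2.4.6, pandas 2.3.3) and plots in matplotlib 3.10.9. A group has 2 arrays, which limits the precision, and the spread was estimated over all groups together. Gene names came from the annotation of the array platform and from RefSeq (GRCm38) (34945 name 1 gene, 932 several, 9160 none, and 204 of the first were not in RefSeq). The test was tried on simulated data. Alternatives were 2 further scalings, other probeset rules, 2 other variance priors, fits of fewer groups, replicate blocks and leaving out each array.

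The members, gene lists, rule and alternatives were chosen with earlier results of these data known. Named with values were the 2 largest rises and falls of each role at each step, the 3 largest strain and interaction differences in each direction, the 2 brightest genes of each role, and genes with probesets called in opposite directions. Of the other lists, only a part of the 2 largest rises and falls at each step is named. Genes of the U1 and Prp19 complex lists are not named, nor are several rises and falls of the remaining lists. Others stand in full lists or were picked after their values were seen (*Snrpa1*, *Snrpc*, *Lsm12* and the probesets of *Prpf19*, *Snrpd3* and *Sf3b4*). Of the 142 listed other genes some had no probeset of their own, and *Lsm5*, *Snrpa*, *Snrpd1* and *Snrpd2*, whose probesets name further genes too, were not analysed here.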

Additional observations from a re-analysis of the deposited data

Results flagged for a closer look

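For 11 genes the PWD versus B6 difference changed with the population (F test of the interaction in limma, adjusted over all probesets). PWD moved from the lower to the higher side between prepachytene and pachytene spermatocytes, by the fitted means, for *Snrpb2* (adjusted p = 0.00684), *Lsm2* (0.0248), *Srsf5* (0.0389), *Srsf9* (0.0256), *Prpf18* (0.042) and *Prpf38a* (0.0468). The strain difference in pachytene minus that in prepachytene spermatocytes was 1.38 for *Snrpb2*, 1.48 for *Lsm2*, 0.89 for *Srsf5*, 1.25 for *Srsf9*, 1.06 for *Prpf18* and 1.06 for *Prpf38a*. For *Sf3b3* (0.0111), that change was 1.11, and a further 0.96 was added between pachytene spermatocytes and spermatids. *Lsm10* (0.0425) and *Srsf6* (0.0486) were not lower in PWD in any population, and their differences grew by 1.20 and 0.77 in pachytene over prepachytene spermatocytes. *Lsm8* (0.0445) and *Prpf31* (0.0482) were lower in PWD spermatids, where the strain difference changed by -1.38 and -0.84 against pachytene spermatocytes. The call of *Snrpb2* was kept in all 20 alternatives and those of the other 10 genes were lost in at least 1. As 20.1% of all genes were called by this test, a share of 11 in 52 is near the background. The cause of these differences was not tested.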

How the results depend on the processing

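Counts of changes between populations varied little: with each array left out in turn, 35 to 39 genes were called into pachytene (9 to 10 higher, 26 to 29 lower) and 39 to 41 into spermatids (2 to 3 higher, 36 to 38 lower), and 24 of 37 and 31 of 41 calls were kept in all 23 alternatives. The genes higher in pachytene were 4 in B6 arrays alone, and those higher in spermatids 6 with centred arrays, 5 with the mean of all probesets and 1 in PWD arrays alone. Strain counts moved more. In prepachytene spermatocytes they were 9 when only the compared groups were fitted, and 9 to 16 with an array left out. In pachytene spermatocytes they were 4 after quantile normalization, 22 with probesets above the background level only, 2 with the compared groups only, and 4 to 16 with an array left out. In spermatids they were 16 with probesets above the background level only, 5 with the mean of all probesets, 5 with the compared groups only, and 3 to 12 with an array left out. The interaction count was 2 to 8 with an array left out. Fewer arrays in a fit leave fewer degrees of freedom, and the other causes were not tested.

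Differences between duplicates correlated at -0.30 to 0.10 between the populations of a strain, and the numbers were not taken to pair samples. Whether same-numbered samples share an animal is not given in the sources used here. With the replicate number within strain as a block, 10 strain calls were made in prepachytene spermatocytes, and the interaction count was 4 with this block and 4 with the number as a block over both strains.

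Single differences reversed in 7 cases: with the mean of all probesets, *Srsf10* into pachytene (-0.81), *Snrpg* (0.45) and *Srsf2* (0.36) into spermatids, *Srsf6* (-0.92) and *Prpf19* (-0.86) between strains in prepachytene spermatocytes and *Snrpd3* (-1.01) in pachytene spermatocytes, and in PWD arrays alone *Srsf9* into pachytene (0.23). Of the other single values, 3741 kept their direction and side of the threshold, 209 lost the call and 76 gained one.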

Other observations

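Of 40 measured genes of hnRNP proteins and tissue splicing regulators, 10 rose and 22 fell into pachytene, and 6 rose and 18 fell into spermatids (limma). Of genes above the background level, 43.1% rose and 40.0% fell into pachytene, and 25.3% rose and 45.9% fell into spermatids. The fall into spermatids was thus near that background share. *Celf2*, for an RNA-binding regulator of exon choice, stood at 3.48 in pachytene and 11.58 in prepachytene spermatocytes (mean log2 of 4 arrays each), and *Nono*, a gene of the X chromosome for a paraspeckle protein, at 4.36 and 10.43, with both pachytene values below the background level. *Khdrbs3* rose into pachytene by 3.16 ± 0.20. *Ptbp1* changed by 2.16 ± 0.33 over both strains, but by 3.59 in PWD and 0.74 in B6, where it was not called (adjusted p = 0.251, limma), and the arrays of the populations overlapped. *Rbfox2* fell into pachytene and rose into spermatids, and as its pachytene arrays lay below the background level the sizes are not reliable. *Hnrnpa0* fell by 4.23 and *Hnrnpa2b1* by 3.53 on the log2 scale into spermatids. In pachytene spermatocytes, 40 of the 129 other splicing genes were higher and 4 lower in PWD than in B6. The shares were 12.1% and 5.05% of all genes, and 22.7% and 5.84% of those above the background level, where 114 of the 129 lay. This split was not recomputed under the other scalings.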
